A study of Mus musculus with 8 samples.

Results

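The genes described here are the transcription factor ATF4, genes that it is known to induce, and the cytosolic aminoacyl-tRNA synthetases, in granulocyte-macrophage progenitors (GMPs) of mice with acute myeloid leukaemia and of normal mice. Of 37 listed genes, 34 had a probe set whose annotation names that gene alone, out of 18193 genes measured in all. The 34 genes were covered by 78 probe sets, and each gene was represented by its brightest probe set over all 8 arrays. Pycr1, Dars and Mars are listed but were not analysed here under those symbols. The genes fall into 16 of the ATF4 programme (7 regulators and stress proteins, 8 amino acid enzymes and the lipoprotein receptor gene Vldlr) and 18 cytosolic synthetases.

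The leukaemic group, named L-GMP in the labels, holds 4 arrays of GMPs sorted by flow cytometry from the bone marrow of mice whose genotype label is HoxA9+Meis1 AML, that is, a leukaemia that carries 2 homeobox transcription factors. The other group holds 4 arrays of GMPs sorted from normal mouse marrow, with the genotype label Normal. Strain, age, the means of delivering the oncogenes and any agent given to the mice are not given in the sources used here. Whether the 4 arrays of a group stand for different mice is not stated, so that each p-value below reflects the scatter of these arrays alone, and that scatter may be technical.

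ATF4 is the main effector of the integrated stress response. Kinases that sense amino acid shortage, misfolded protein, haem deficiency or viral RNA phosphorylate the initiation factor eIF2, which lowers general translation but raises translation of the Atf4 messenger through its upstream reading frames. ATF4 then pairs with C/EBP proteins on a composite DNA element and raises genes for amino acid synthesis, amino acid import and tRNA charging, together with stress regulators such as CHOP (Ddit3) and TRIB3. Because ATF4 is controlled largely at translation, the level of its messenger is not a measure of its protein, which was not measured here. The synthetases join each amino acid to its tRNA and are needed in every dividing cell.

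The composite element, searched as TGATGNAA on both strands, was present in the promoter windows of many of these genes. Windows ran from 250 bases before to 50 bases after a RefSeq transcription start (GRCm38.p6), and 28 of the 37 listed genes had one. Of those 28 genes, 11 held the element (39.3%), against 4.51% of the 27025 genes in the table. The listed genes include known targets of ATF4, so this excess describes the list and is not a test of it. The share was 37.5% of 16 ATF4 programme genes and 41.7% of 12 cytosolic synthetases, whereas none of 14 mitochondrial synthetases held it. The stricter form TGATGCAA, which is contained in the first, was found in 8 of the 28 genes and in 1.03% of all genes. The sequences below show the element with 11 bases on each side, for 6 of the genes whose element lies before the start, because these genes share the element while their changes, given below, differ in sign and size. They are written 5′ to 3′ along the gene, with the element in capitals (TTGCATCA and TTTCATCA are the element read on the opposite strand).
Asns: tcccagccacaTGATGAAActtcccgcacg
Chac1: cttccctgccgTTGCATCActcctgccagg
Nupr1: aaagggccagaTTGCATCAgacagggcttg
Vldlr: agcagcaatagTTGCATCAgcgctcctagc
Gars: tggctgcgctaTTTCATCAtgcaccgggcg
Tars: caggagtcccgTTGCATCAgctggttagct

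On GRCm38.p6 these stretches lie at chr6:7693214-7693243 on the minus strand (Asns, element 23 bases before the start), chr2:119351038-119351067 on the plus strand (Chac1, 193 bases before) and chr7:126625562-126625591 on the minus strand (Nupr1, 110 bases before). Those of Vldlr and Gars lie on the plus strand at chr19:27216809-27216838 and chr6:55037960-55037989, with the element 200 and 30 bases before the start. That of Tars lies on the minus strand at chr15:11399655-11399684, 15 bases before the start. A match describes these letters and is not evidence of binding. Of the genes with a window, the 10 measured with the element had a median change between the groups of 0.04 on the log2 scale. Of these 10, 0 were higher and 1 was lower (Vldlr). The 16 without the element had a median of 0.14, with 1 higher and 1 lower. Over all genes the median was 0.01, 4.78% were higher and 7.27% lower, and the difference by element was not tested.

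As a check of the cell type, the GMP genes Mpo, Elane, Prtn3, Ctsg and Fcgr3 were bright in both groups. The summed intensity of these 5 genes was 33950 to 36210 in GMPs and 21770 to 26050 in L-GMPs, and Mpo, Elane and Prtn3 were lower in L-GMPs. Markers of other cells also differed. Of 6 eosinophil, basophil and mast cell markers 5 were lower in L-GMPs (summed intensity 374 to 964, against 2669 to 8743 in GMPs), of 4 megakaryocyte markers 2 were lower (148 to 209, against 410 to 1774), and of 6 monocyte and macrophage markers 5 were higher (8266 to 12030, against 4029 to 4594). Of 4 erythroid markers 1 was lower, of 6 mature neutrophil markers 1 was lower, and of 5 B cell and 5 T and NK cell markers 0 passed the test. Of 5 stromal and endothelial markers 1, Pecam1, was higher. Col1a1, Col3a1, Cdh5 and Cxcl12 had changes of -0.08 to 0.15 and did not pass. The B cell marker Ms4a1, the NK cell marker Ncr1 and the stromal marker Col3a1 lay below the lower quartile of probe sets on each of the 8 arrays. In these bulk samples, fewer cells of a type and less RNA per cell cannot be told apart. Arrays correlated at 0.983 to 0.994 within groups and 0.967 to 0.974 between them over 45037 probe sets. GMP array D stood apart in the control probe sets of Gapdh, where the 3' signal exceeded the 5' signal by 2.74 on the log2 scale, against 1.24 to 1.76 on the other arrays. The labels' protocol names a whole-transcript sense labelling kit, and how that kit bears on this ratio was not tested.

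The comparison of L-GMPs with GMPs asks which of these genes differ between leukaemic and normal cells sorted as GMPs. Of the 34 genes 3 passed the test, a share near that of all genes. Vldlr, a receptor for lipoproteins and reelin, was lower in L-GMPs, as was Eprs, the synthetase for glutamic acid and proline, and Cbs, the enzyme that makes cystathionine from homocysteine and serine, was higher. The remaining 31 genes did not pass the threshold, an adjusted p of 0.05 by limma with Benjamini-Hochberg adjustment over all genes. The 3 called genes are 8.82% of the 34, against 12.1% of all genes. By direction, 1 gene was higher (4.78% of all genes were) and 2 were lower (7.27%). The 4 arrays of each group did not overlap in 5 of the 34 genes (14.7%, against 18.2% of all genes). Cbs lay higher in all L-GMP arrays (8.53% of all genes did), and Vldlr, Eprs, Farsb and Hars lay lower (9.71% of all genes did). At an unadjusted p of 0.05, 10 of the 34 passed (29.4%, against 26.2% of all genes). The median change of the 34 genes was -0.02 and that of all genes 0.01.

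**Figure D1:**
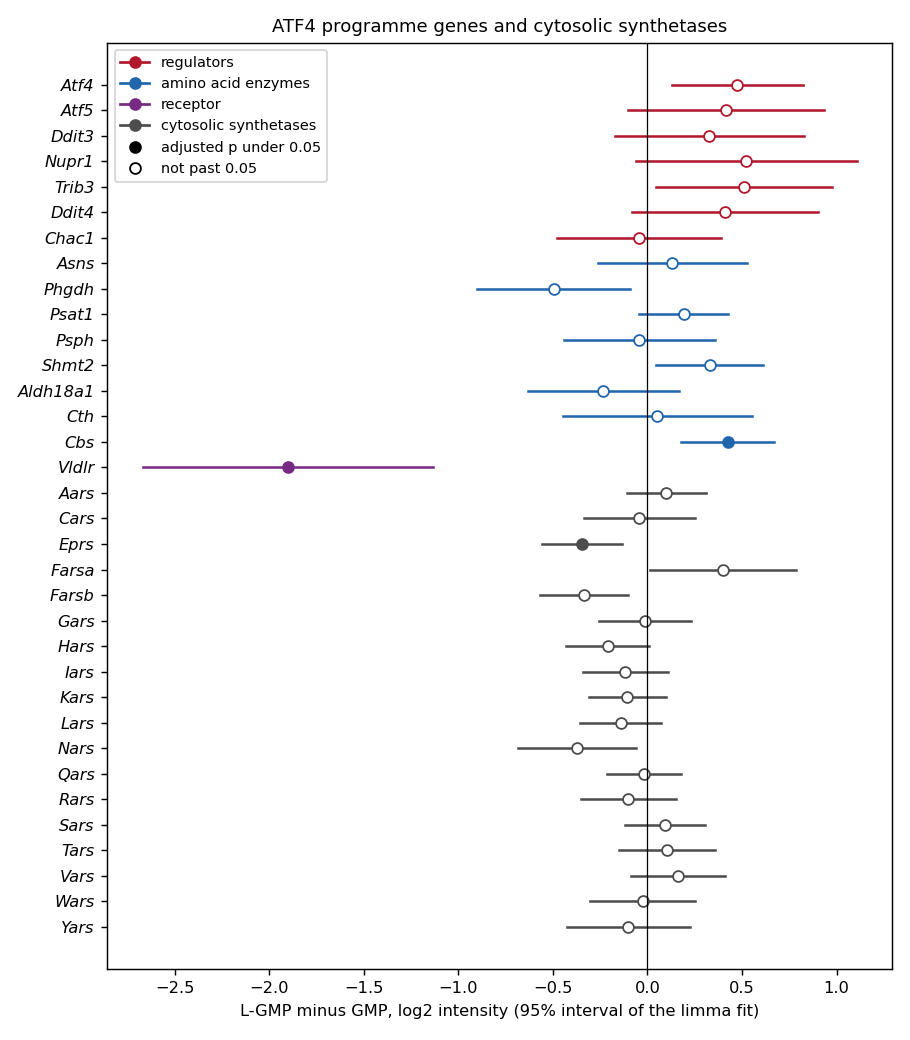
Change between L-GMPs and GMPs (horizontal axis, log2 intensity, L-GMP minus GMP) of the 34 measured genes, with the 95% interval of the limma fit on 4 arrays per group. Filled points passed an adjusted p of 0.05. Vldlr stands far to the left, 6 of the 7 regulators lie to the right of 0, and most synthetases lie close to 0 with short intervals. The intervals of Eprs, Farsb and Nars lie below 0 and that of Farsa lies above 0.

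The gene groups can be described on the single arrays. Taking each gene's distance from its GMP mean, the median over the 7 regulators was 0.33, 0.60, 0.52 and 0.34 on L-GMP arrays A to D, and 0.12, -0.15, -0.04 and 0.09 on GMP arrays A to D. In this median the 4 L-GMP arrays lay above the 4 GMP arrays, but 0 of the 7 regulators passed the test, and 2 had an unadjusted p under 0.05 (28.6%, against 26.2% of all genes). Over the 18 synthetases the same median was -0.01, -0.03, -0.07 and -0.15 on the L-GMP arrays and -0.06, 0.02, -0.01 and 0.07 on the GMP arrays, with the groups overlapping. The difference between these gene groups was not tested. Over the 8 amino acid enzymes it was 0.31, 0.14, -0.04 and 0.09 on the L-GMP arrays, against -0.20, 0.09, -0.12 and 0.16 on the GMP arrays, and the groups overlapped there as well.

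**Figure D2:**
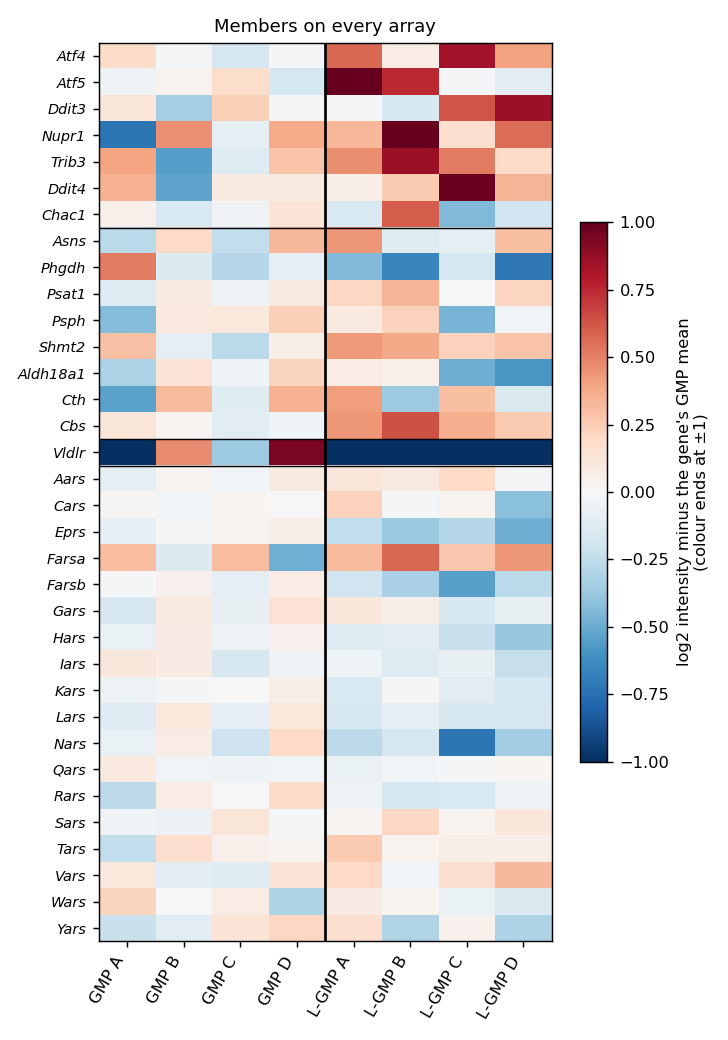
Log2 intensity of the 34 genes (rows, in the order regulators, amino acid enzymes, Vldlr, synthetases) on the 8 arrays (columns), each minus the gene's GMP mean, with colour ending at ±1. Red in the upper rows of the L-GMP arrays marks regulators, in different arrays for different genes, and the lower rows of synthetases are mostly pale.

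Among the regulators, Atf4 itself read 11.11, 10.61, 11.38 and 10.94 on L-GMP arrays A to D and 10.72, 10.52, 10.37 and 10.52 on GMP arrays A to D (log2 intensity). L-GMP arrays A, C and D were above all GMP arrays, and L-GMP array B lay among them. The change was 0.48 (SE 0.16, 95% interval 0.13 to 0.82, limma adjusted p = 0.0779), from 10.53 ± 0.14 to 11.01 ± 0.32 (SD, n = 4), and it did not pass. It passed with L-GMP array B left out (0.61, adjusted p = 0.0168) and did not with any other single array left out (0.35 to 0.54, adjusted p 0.0678 to 0.188). In all, Atf4 passed under 4 of the 18 alternatives. The other 3 were array weights (0.54, adjusted p = 0.0241), centring on the array median (0.62, adjusted p = 0.0332), and L-GMP B and GMP D left out together (0.60, adjusted p = 0.0452). A second bright probe set of Atf4 had a change of 0.54 (adjusted p = 0.055 over all probe sets), and a dim one a change of 0.03.

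Ddit3, which encodes CHOP, the factor tied to cell death under lasting stress, read 7.74, 7.60, 8.39 and 8.62 on the L-GMP arrays and 7.88, 7.42, 7.998 and 7.74 on the GMP arrays. L-GMP arrays C and D were above all GMP arrays, while A and B lay within the GMP range. The change was 0.33 (SE 0.23, adjusted p = 0.398), and in the dimmer probe set of the gene it was 1.07 (adjusted p = 0.111).

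Atf5, a related factor that ATF4 and CHOP can induce, was high on other L-GMP arrays than Ddit3. It read 7.61, 7.33, 6.57 and 6.47 on L-GMP arrays A to D, against 6.54, 6.62, 6.76 and 6.41 on the GMP arrays. L-GMP arrays A and B were above all GMP arrays, whereas C and D were not, and the change was 0.41 (SE 0.23, adjusted p = 0.299). The spread among L-GMP arrays was 0.56 (SD, n = 4) for Atf5 and 0.49 for Ddit3, against 0.15 and 0.25 among GMP arrays.

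Trib3, a pseudokinase that restrains ATF4 and CHOP, read 4.67, 5.06, 4.73 and 4.39 on the L-GMP arrays and 4.597, 3.66, 4.07 and 4.49 on the GMP arrays. The groups overlapped, with GMP array B lowest, and the change was 0.51 (SE 0.21, adjusted p = 0.152). Trib3 was dim, and its other probe set changed by 0.10 (adjusted p = 0.59 over all probe sets). Nupr1, a small stress-induced chromatin protein, had the largest change among the genes that did not pass, 0.52 (SE 0.26, adjusted p = 0.241), with L-GMP arrays at 5.73 to 6.595 and GMP arrays at 4.83 to 6.02. Without GMP array A, the lowest, its change was 0.28, below the 0.64 of Trib3. Ddit4 (REDD1), an inhibitor of mTORC1, had a change of 0.41 (adjusted p = 0.276), and its highest array was L-GMP C at 9.14. Chac1, which degrades glutathione, was dim in both groups, at 3.67 to 4.71 in L-GMPs and 3.95 to 4.24 in GMPs, with a change of -0.04 (adjusted p = 0.916).

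**Figure D3:**
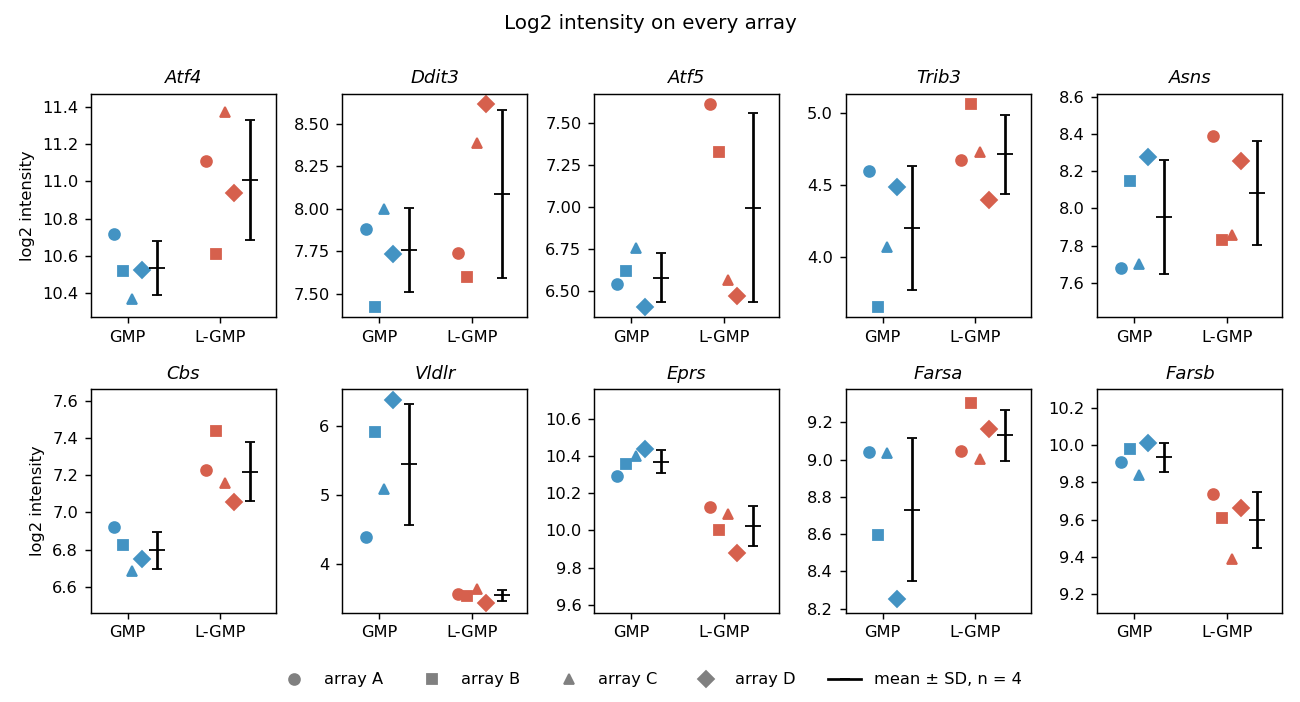
Log2 intensity (vertical axis, a separate scale for each gene) of 10 genes on the 4 GMP and 4 L-GMP arrays, with a marker shape for each array letter and the mean ± SD of each group. L-GMP arrays C and D are high for Ddit3 and arrays A and B for Atf5, and the groups do not overlap for Cbs, Vldlr, Eprs and Farsb.

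Of the 8 amino acid enzymes 1, Cbs, was higher and 0 were lower (12.5% called, against 12.1% of all genes). Cbs, which begins the transfer of sulfur from homocysteine to cysteine, read 7.23, 7.43, 7.16 and 7.06 on the L-GMP arrays and 6.92, 6.82, 6.69 and 6.75 on the GMP arrays. The groups did not overlap. The change was 0.42 (SE 0.11, 95% interval 0.18 to 0.67, 1.34-fold, limma adjusted p = 0.0315), from 6.80 ± 0.10 to 7.22 ± 0.16 (SD, n = 4). The call was lost when any array except L-GMP D or GMP A was left out (adjusted p 0.0559 to 0.0878), and the second, dimmer probe set of Cbs had a change of 0.05. Cth, the enzyme of the next step, was near the floor, at 2.49 to 3.28 in L-GMPs and 2.32 to 3.20 in GMPs, where a change of 0.05 was measured (adjusted p = 0.916).

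Asns, asparagine synthetase, is among the best known ATF4 targets and is the enzyme that lets leukaemia cells do without outside asparagine. It read 8.39, 7.83, 7.86 and 8.25 on the L-GMP arrays and 7.68, 8.15, 7.70 and 8.28 on the GMP arrays. Each group held both high and low arrays, so the ranges coincided almost entirely. The change was 0.13 (SE 0.18, 95% interval -0.26 to 0.52, adjusted p = 0.697), and the second probe set gave 0.21 (adjusted p = 0.568).

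Serine and glycine synthesis starts from the glycolytic intermediate 3-phosphoglycerate with Phgdh, continues with Psat1 and Psph, and ends with glycine made in mitochondria by Shmt2. Phgdh read 11.03, 10.82, 11.30 and 10.76 on the L-GMP arrays and 11.99, 11.33, 11.18 and 11.38 on the GMP arrays. Only L-GMP array C reached the GMP range, and the change was -0.50 (SE 0.18, 95% interval -0.90 to -0.09, adjusted p = 0.112). In all 4 probe sets of Phgdh the change was below 0, from -0.78 to -0.26, and 1 of them fell past the threshold over all probe sets (adjusted p = 0.00309). All 4 carry the suffix x_at, by which the array's maker marks probes that may also bind other transcripts. Of the 34 genes, 7 were read from such a probe set (Atf4, Trib3, Asns, Phgdh, Shmt2, Vldlr and Qars). Psat1 had a change of 0.19 (adjusted p = 0.291) and Psph of -0.04 (adjusted p = 0.909). Shmt2 had a change of 0.33 (SE 0.13, adjusted p = 0.128), with L-GMP arrays at 10.42 to 10.61 and GMP arrays at 9.92 to 10.49. Its 4 probe sets changed by 0.29 to 0.44, and 1 of them rose past the threshold (adjusted p = 0.0254). The probe set of Shmt2 that passed does not carry the suffix x_at, and the others do. Thus the first enzyme of this route and the last had changes of opposite sign in each of their probe sets.

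Aldh18a1, which carries out the first steps of proline synthesis from glutamate, had a change of -0.23 (SE 0.18, adjusted p = 0.454) when read from the brightest of its probe sets. All 5 of its probe sets were lower in L-GMPs, with changes of -0.74 to -0.23, and 2 passed the threshold over all probe sets (adjusted p = 0.0309 and 0.037). Both of those that passed carry the suffix x_at. In the brightest probe set, L-GMP arrays A and B (7.36 and 7.33) lay within the GMP range of 6.96 to 7.50, and arrays C and D (6.79 and 6.69) lay below it.

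Vldlr had the largest change of all 34 genes. It read 3.57, 3.53, 3.63 and 3.44 on the L-GMP arrays and 4.39, 5.91, 5.08 and 6.38 on the GMP arrays. The L-GMP arrays agreed closely and the GMP arrays were spread over almost 2 units, with GMP D highest and GMP A lowest. The change was -1.90 (SE 0.35, 95% interval -2.67 to -1.14, 3.74-fold, limma adjusted p = 0.00538), from 5.44 ± 0.88 to 3.54 ± 0.08 (SD, n = 4). It passed under each of the 17 alternatives that kept the gene (adjusted p 0.000566 to 0.0214) and was -1.59 without GMP array D. The L-GMP values lie below the lower quartile of probe sets on their arrays, where intensity tracks RNA amount poorly, which leaves the fold imprecise. The 6 probe sets of Vldlr changed by -1.90 to -0.09, 2 of them past the threshold, and their mean changed by -0.76 (adjusted p = 0.0198). The probe set that changed by -1.90 carries the suffix x_at, and the others changed by -0.93 to -0.09. The summed eosinophil, basophil and mast cell markers and the summed megakaryocyte markers, given above, were also lower in L-GMPs, and their part in the fall was not tested.

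The cytosolic synthetases were bright and held close to their GMP levels. All 18 lay above the median gene in mean intensity, and their median lay at the 90.2th percentile of all genes. Of the 18, 0 were higher and 1 was lower in L-GMPs (5.56% called, against 12.1% of all genes). With the dimmest 50% of genes left out, 19% of the remaining genes were called, and Eprs and Farsb were the synthetases called. An unadjusted p under 0.05 was found for 4 (22.2%, against 26.2% of all genes). The median change was -0.07, with a range of -0.37 to 0.40. The 95% interval of the change lay within 2-fold in either direction for all 18, and within 1.5-fold for 16 of the 18 (88.9%, against 68.6% of all genes), the exceptions being Farsa and Nars. The median SD within groups was 0.13 for the synthetases and 0.18 for all genes, and the part of brightness in these narrower intervals was not tested. Centring each array on its median turned the median change of the synthetases to 0.07, while quantile normalization gave -0.09.

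Eprs, a bifunctional enzyme that charges the tRNAs of glutamic acid and proline, read 10.13, 10.001, 10.09 and 9.88 on the L-GMP arrays and 10.29, 10.36, 10.40 and 10.44 on the GMP arrays. The groups did not overlap, and the change was -0.35 (SE 0.10, 95% interval -0.56 to -0.13, 1.27-fold, limma adjusted p = 0.0411), from 10.37 ± 0.06 to 10.02 ± 0.11 (SD, n = 4). The call was lost without any array except GMP A (adjusted p 0.0588 to 0.105), and once each array was centred (adjusted p = 0.18). The other 3 probe sets of Eprs changed by -0.28 to -0.10 and did not pass.

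Phenylalanyl-tRNA synthetase is built from alpha subunits, encoded by Farsa, and beta subunits, encoded by Farsb, and the messengers of the 2 subunits differed in sign. Both genes were chosen for this description after their values were seen. Farsb read 9.74, 9.61, 9.39 and 9.66 on the L-GMP arrays and 9.91, 9.98, 9.84 and 10.01 on the GMP arrays, with no overlap. Its change was -0.34 (SE 0.11, adjusted p = 0.0652). Farsa read 9.05, 9.30, 9.002 and 9.17 on the L-GMP arrays and 9.04, 8.60, 9.04 and 8.25 on the GMP arrays, of which B and D were low. Its change was 0.40 (SE 0.17, adjusted p = 0.176), and 0.24 without GMP array D. All 4 probe sets of Farsa were higher in L-GMPs (0.30 to 0.63) and all 4 of Farsb were lower (-0.54 to -0.09). Over all probe sets, 1 of Farsa rose (adjusted p = 0.0124) and 1 of Farsb fell (adjusted p = 0.0403).

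Nars, the asparaginyl enzyme, had a change of -0.37 (SE 0.14, adjusted p = 0.117), with L-GMP arrays at 10.99 to 11.54 and GMP arrays at 11.50 to 11.91. Hars, the histidyl enzyme, had a change of -0.21 (SE 0.10, adjusted p = 0.207), and its groups did not overlap (10.13 to 10.39 against 10.44 to 10.58). The other 13 synthetases had changes from -0.14 (Lars, leucyl) to 0.16 (Vars, valyl). Those of Aars (alanyl), Sars (seryl) and Tars (threonyl) were 0.10, 0.09 and 0.10, and those of Gars (glycyl), Qars (glutaminyl) and Wars (tryptophanyl) were -0.01, -0.02 and -0.02. Cars (cysteinyl) had -0.04, Yars (tyrosyl) and Rars (arginyl) both -0.10, Kars (lysyl) -0.11 and Iars (isoleucyl) -0.12. Mars1, the symbol under which the array's annotation lists the methionyl enzyme, was outside the rule for the genes and had a change of -0.03 (adjusted p = 0.903).

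In animals, part of the synthetases form the multisynthetase complex, held together by the scaffold proteins AIMP1, AIMP2 and EEF1E1. The 6 measured enzymes of the complex (Eprs, Iars, Lars, Qars, Rars and Kars) had changes of -0.35 to -0.02, all below 0, with a median of -0.11. The 12 enzymes outside it had a median of -0.02 and a range of -0.37 to 0.40. The scaffold genes and Xpot, the tRNA exporter, had 0 of 4 called (12.1% of all genes were), with changes of -0.12 (Aimp1, adjusted p = 0.53) to -0.03. After centring on the median, Iars, Kars, Qars and Rars had changes above 0, of 0.02 to 0.12.

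The mitochondrial synthetases, encoded by separate genes, had 1 of 16 measured lower and 0 higher, with a median change of -0.06. That is 6.25% called, against 12.1% of all genes. The called gene was Mars2, the mitochondrial methionyl enzyme, which was dim. Mars2 read 4.28, 4.10, 3.89 and 4.17 on the L-GMP arrays and 4.50, 5.24, 5.38 and 5.39 on the GMP arrays. The groups did not overlap, and it fell by 1.02 on the log2 scale (SE 0.19, adjusted p = 0.00649). The mean of its 2 probe sets changed less, by -0.64 (limma adjusted p = 0.0119).

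Upstream of ATF4, the 13 measured genes for eIF2 kinases, the eIF2 phosphatase and subunits of eIF2 and eIF2B had 1 higher and 1 lower. That is 15.4% called, against 12.1% of all genes. Ppp1r15a (GADD34), the inducible phosphatase subunit that reverses eIF2 phosphorylation and is itself a target of the pathway, read 7.71, 7.29, 8.06 and 8.05 on the L-GMP arrays and 7.14, 6.496, 6.70 and 7.07 on the GMP arrays. All L-GMP arrays were above all GMP arrays, and it rose by 0.93 (SE 0.20, 1.90-fold, adjusted p = 0.0122). Eif2ak2 (PKR), the kinase that senses double-stranded RNA, read 8.46, 8.55, 8.26 and 8.44 on the L-GMP arrays and 8.76, 9.09, 8.93 and 9.11 on the GMP arrays. It fell by 0.54 (SE 0.11, adjusted p = 0.0111), again without overlap. Both calls were kept under each alternative. The other kinase genes had changes of -0.07 (Eif2ak1, the haem-regulated kinase), -0.12 (Eif2ak3, PERK) and -0.24 (Eif2ak4, GCN2), and did not pass.

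Among 21 measured further targets and partners of ATF4, 3 were higher and 0 lower (14.3% called, against 12.1% of all genes), with a median change of 0.13. Atf3, a stress-induced factor of the same family, read 7.07, 5.94, 8.53 and 9.09 on the L-GMP arrays and 5.11, 4.35, 4.46 and 5.96 on the GMP arrays. L-GMP arrays C and D, which were also the high arrays for Ddit3, were the highest, and L-GMP array B lay just under GMP array D. Atf3 rose by 2.69 (SE 0.61, 6.44-fold, adjusted p = 0.0173), a call lost without GMP array B or C (adjusted p 0.0577 and 0.0592) and with a trended robust prior (adjusted p = 0.0675). Slc1a5, the glutamine carrier ASCT2, read 8.50 to 8.73 on the L-GMP arrays and 7.24 to 7.85 on the GMP arrays. It rose by 1.02 (SE 0.14, 2.02-fold, adjusted p = 0.000799), but its probe set with the highest level in GMPs changed by 0.41 (adjusted p = 0.102). Cebpb, a partner of ATF4 on the composite element, rose by 0.52 (SE 0.14, adjusted p = 0.0345), a call lost with L-GMP array A or C or GMP array A, B or C left out (adjusted p 0.0691 to 0.0951). Slc3a2, the heavy chain of the LAT1 and xCT carriers, was chosen after its values were seen. It had a change of 0.39 (adjusted p = 0.054) with groups that did not overlap.

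The neighbouring amino acid enzymes had 1 of 13 measured higher and 2 lower (4.78% and 7.27% of all genes were). Got1, the cytosolic aspartate aminotransferase, rose by 0.46 (SE 0.11, adjusted p = 0.0247), with L-GMP arrays at 9.41 to 9.72 and GMP arrays at 9.002 to 9.26. Pycrl, which makes proline in the last step of its synthesis, read 7.22 to 7.77 in L-GMPs and 7.97 to 8.09 in GMPs and fell by 0.47 (SE 0.12, adjusted p = 0.0342). Prodh, which starts proline breakdown, read 6.23 to 6.55 in L-GMPs and 6.63 to 6.88 in GMPs and fell by 0.40 (SE 0.11, adjusted p = 0.0395). None of these 3 calls was firm: that of Got1 was lost without L-GMP array A or D or GMP array B or C (adjusted p 0.0575 to 0.0729), that of Pycrl without L-GMP array C or D or any GMP array (adjusted p 0.0552 to 0.089), and that of Prodh without any array except L-GMP B (adjusted p 0.061 to 0.11).

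**Figure D4:**
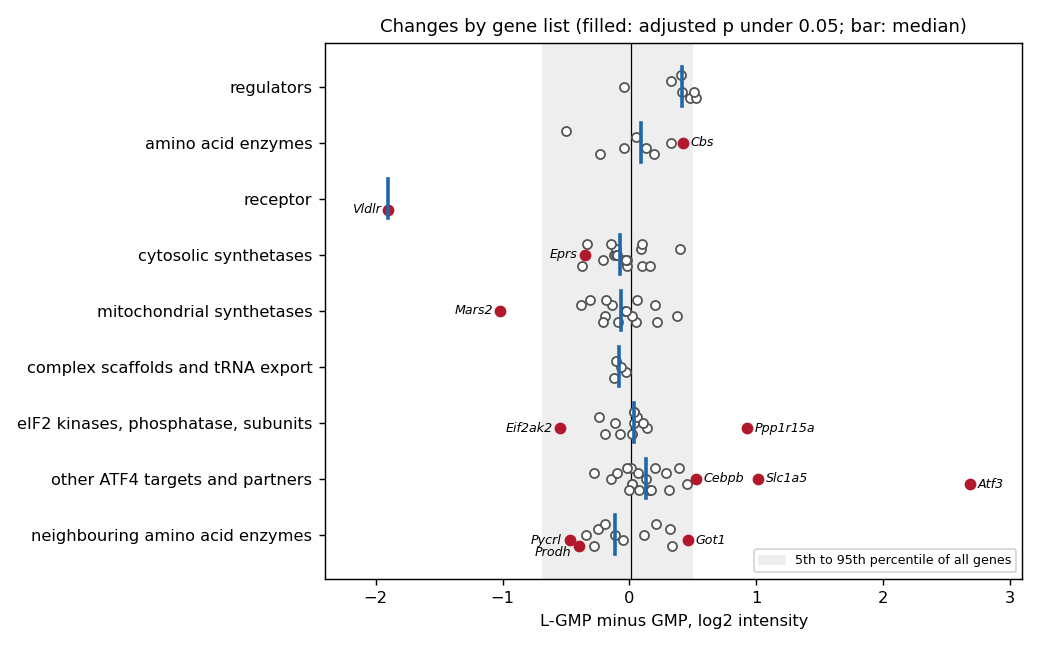
Change between L-GMPs and GMPs (horizontal axis, log2 intensity, L-GMP minus GMP) of every measured gene in 9 gene lists (vertical axis), with a bar at each list's median and a grey band from the 5th to the 95th percentile of all genes (-0.68 to 0.49). Filled and named points passed an adjusted p of 0.05, and of these Vldlr, Mars2, Slc1a5, Ppp1r15a, Atf3 and Cebpb lie outside the band, as do the open points of Nupr1 and Trib3.

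Counting every probe set of the 34 genes separately, 10 of 78 passed over all probe sets (12.8%, against 10.9% of all 45037), 3 higher and 7 lower, and they belonged to 8 genes. Of 22 genes with several probe sets, 19 had changes of a single sign in all of them, and 0 had calls of both signs.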

How the data were processed

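Total RNA of sorted cells was measured on 8 Affymetrix arrays. The authors deposited linear intensities, made with RMA per the submitters' processing notes, a method of background correction, normalization between arrays and summary by probe set. The linear scale was read from the values. No detection calls, scan dates or coordinates of probes were used, and precision is limited by having 4 arrays a group. Values were turned to log2. Of 45101 probe sets, 64 controls were left out, and the platform annotation gave 34945 of the others a lone gene symbol, 932 several and 9160 none, for 18193 genes.

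The groups were compared by limma's moderated 2-sided test (version 3.58.1, run in R 4.3.3), with group as the only term. Adjustment by Benjamini-Hochberg ran over all genes, or over all 45037 probe sets where stated. Changes are L-GMP minus GMP. On simulated data for this comparison over 18193 genes, the test recovered 90% of 100 genes given a log2 change of 1 and 98% of 100 given a change of 2, with 9 false calls. Smaller changes, such as those of all 34 genes except Vldlr, were not simulated, and their recovery is not known. The genes and lists were chosen with earlier results of these data known, so no test over a list is given. Values on each array were fixed by rule for called genes, Atf4, Atf5, Ddit3, Asns and Trib3. Each neighbour list was described by up to 4 called genes, or by the gene with the largest change where 0 passed. Other genes named with values, including second probe sets, Farsa, Farsb, Hars, Aldh18a1 and the uncalled kinases, were chosen after their values were seen. The 18 alternatives were 2 scalings, 2 filters on dim genes, 2 rules for the probe set, a robust prior with a trend, weights for arrays, a block for the replicate letter, each array left out, and L-GMP B and GMP D left out together. Promoter windows are from RefSeq.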

Additional observations from a re-analysis of the deposited data

Results flagged for a closer look

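Among 44 genes described with values, an array lay far from the other 3 of its group in 4 of 88 group readings (by Dixon's 95% critical value for the gap over the range), and chance gives about 1 in 20. Lars read 10.43 on L-GMP array B, against 10.35 on the nearest other array. Qars read 11.52 on GMP array A, against 11.39. Tars read 9.74 on L-GMP array A, against 9.55. Mars2 read 4.50 on GMP array A, against 5.24.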

How the results depend on the processing

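With 4 arrays per group, few calls among these genes were firm. The count of members higher was 1 and that of members lower 2. After centring each array on its median, these were 4 (Atf4, Cbs, Psat1 and Shmt2) and 1, with array weights 3 and 3, with the replicate block 0 and 1, and with L-GMP B and GMP D left out together 1 and 1. With single arrays left out they ranged from 0 to 2 and from 1 to 2. Vldlr kept its call in all alternatives that tested it. Centring also moved the median change of all genes from 0.01 to 0.15, and gave medians of 0.12 for the members, 0.40 for the ATF4 programme, 0.069 for the cytosolic and 0.079 for the mitochondrial synthetases, 0.056 for scaffolds and tRNA export, 0.18 for eIF2 genes, 0.27 for further targets and 0.027 for neighbouring enzymes. Mitochondrial synthetases had -0.028 under quantile normalization and -0.17 with probe sets averaged, and neighbouring enzymes -0.16 when quantile normalized and -0.19 with the dimmest 25% of genes removed. With single arrays left out, medians ranged from -0.034 to 0.049 (members), 0.17 to 0.28 (ATF4 programme), -0.11 to -0.029 (mitochondrial synthetases) and -0.15 to -0.052 (neighbouring enzymes). Of the neighbour genes, 5 were higher and 4 lower, against 11 and 2 after centring, 3 and 2 with the replicate block, 7 lower with probe sets averaged, 2 lower with both arrays left out, and 2 to 5 and 2 to 4 with single arrays left out.

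Changes near 0 turned sign, none of them called. After centring, these were Chac1 (0.10), Psph (0.10), Cars (0.10), Gars (0.13), Iars (0.023), Kars (0.034), Qars (0.12), Rars (0.039), Wars (0.12), Yars (0.0405) and Aimp1 (0.0226). Chac1 was 0.017 under quantile normalization, Cars 0.053 with probe sets averaged, and Cth -0.0081 and Wars 0.0216 with array weights. With both arrays left out, Gars was 0.0104 and Yars 0.0348. With single arrays left out, ranges were -0.26 to 0.087 (Chac1), -0.19 to 0.10 (Psph), -0.13 to 0.19 (Cth), -0.13 to 0.083 (Cars), -0.068 to 0.034 (Gars), -0.035 to 0.013 (Qars) and -0.13 to 0.051 (Wars). The cause of these shifts was not tested. The labels do not say whether the replicate letters pair arrays. Same-letter correlations of deviations were -0.05, -0.01, -0.07 and 0.11, and those of different letters ran from -0.12 to 0.11. These correlations cannot decide whether arrays were paired. As a block the letters lowered the calls over all genes from 2193 to 1760.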
